A study of Mus musculus with 10 samples.

Results

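The 5 genes that mark the revival stem cell, Clu, Anxa1, Ly6a, Basp1 and Cxadr, were followed through single-cell transcriptomes of mouse intestinal organoids and colonic crypts. They were chosen by name, as 5 of the 23810 genes of the count table, and their UMI counts (unique molecular identifiers, each standing for a captured transcript molecule) were summed per library and per cell class. Organoids were grown in Matrigel from proximal small intestinal crypts. The conventional medium of the 3 ENR libraries held EGF, Noggin and R-Spondin 1. That of the 3 Hyper libraries held LDN193189, GSK-3 Inhibitor XV, Pexmetinib, valproic acid (VPA, which inhibits histone deacetylases), EPZ6438 (which inhibits EZH2, a histone methyltransferase), EGF, R-Spondin 1 conditioned medium and FGF2. The -VE-organoids (2 libraries) received the latter without VPA or EPZ6438, so that all 3 groups share EGF and an R-Spondin 1 source. Replicates 1, 2 and 3 carry the library-name prefixes 2, 6 and C, which are called culture series here. They were at passages 2, 7 and 3 for ENR-organoids and 1, 6 and 3 for Hyper-organoids. The -VE-organoids of series 2 and 6 were at passages 1 and 6. Within series 2 and 6 the Hyper- and -VE-organoids had been made out of ENR-organoids, whereas both libraries of series C were started from primary crypts. The colon was sampled as 1 library of crypts of normal mice and 1 of mice given dextran sulfate sodium (DSS, a chemical that injures the colonic epithelium). The labels give neither strain, age nor animal for a library, nor whether series 2 and 6 are separate lines or 1 line at different passages. The p-values therefore measure the spread between these libraries, and passage, series and origin cannot be told apart within a group.

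Revival stem cells are rare crypt cells that appear after the homeostatic stem cells are lost, express Clu and can rebuild the crypt, in a state that shares features with the fetal gut. Clu encodes clusterin, a secreted chaperone. Anxa1 encodes annexin A1, which binds phospholipids in a calcium-dependent manner and, once secreted, acts on formyl peptide receptors. Ly6a encodes SCA1, a small GPI-anchored protein of the Ly6 family that is used to sort regenerating and fetal-like epithelium. Basp1 encodes a myristoylated protein of the inner plasma membrane, related in behaviour to GAP43 and MARCKS and best known from growing neurites. Cxadr encodes the coxsackievirus and adenovirus receptor, an adhesion protein of epithelial junctions. The study read Clu, Anxa1 and Ly6a as the markers of a revival stem cell cluster, annotated RSC, and scored a revival signature of Clu, Anxa1, Cxadr and Basp1. The other annotated classes were stem cells (SC), transit amplifying cells (TA), enterocyte progenitors (EP), enterocytes (EC), goblet cells (GC), Paneth cells (PC), enteroendocrine cells (EE) and a small class named TC.

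The genes lie apart in the genome (GRCm38 coordinates). Clu (ENSMUSG00000022037) lies at chr14:65968483-65981547 on the plus strand, and Cxadr (ENSMUSG00000022865) at chr16:78301489-78359774 on the plus strand. Anxa1 (ENSMUSG00000024659) lies at chr19:20373428-20390944, Ly6a (ENSMUSG00000075602) at chr15:74994877-74998031 and Basp1 (ENSMUSG00000045763) at chr15:25363277-25413764, all on the minus strand. Anxa1 and Cxadr overlap genes of the opposite strand only, a lincRNA at Anxa1 and Btg3 among others at Cxadr. Ly6a has close relatives in the Ly6 family, and whether any of its UMIs were divided with them was not tested. RefSeq promoter windows of 300 bases (GRCm38.p6) were at hand for 2 of the 5 genes, Anxa1 at chr19:20390622-20390921 and Basp1 at chr15:25413715-25414014, both on the minus strand. They are shown because these genes differ in where they were expressed (of the 4 fitted classes of Hyper-organoids, enteroendocrine cells had the lowest Anxa1 and the highest Basp1 level). Capitals mark the motifs found on either strand among 4 that were searched, the TEAD core GGAATG, the TATA box TATAAA, the GC box GGGCGG and the AP-1 site TGANTCA.
Anxa1: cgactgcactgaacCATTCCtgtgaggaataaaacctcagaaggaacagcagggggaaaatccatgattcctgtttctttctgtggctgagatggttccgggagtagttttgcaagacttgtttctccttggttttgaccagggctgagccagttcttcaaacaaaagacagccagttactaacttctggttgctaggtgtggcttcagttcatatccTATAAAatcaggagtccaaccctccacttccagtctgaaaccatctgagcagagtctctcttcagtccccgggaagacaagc
Basp1: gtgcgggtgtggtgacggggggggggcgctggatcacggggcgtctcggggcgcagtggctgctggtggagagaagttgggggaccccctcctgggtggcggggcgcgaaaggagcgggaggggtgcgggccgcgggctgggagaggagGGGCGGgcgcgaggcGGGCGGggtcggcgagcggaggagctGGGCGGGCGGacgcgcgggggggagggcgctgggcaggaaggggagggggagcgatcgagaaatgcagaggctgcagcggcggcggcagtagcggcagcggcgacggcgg
The Anxa1 window held GC at 47.3% of its bases and 3 CG pairs, against medians of 52.7% and 7 over 32851 windows, with 1 TEAD core at -236 and 1 TATAAA at -32 from the start. The Basp1 window held GC at 78.0% of its bases, above 98.1% of the windows, and 38 CG pairs. It had 4 GC boxes, at -101, -86, -60 and -56, the last of which overlaps the one before it. Among all windows 14.7% held a TEAD core, 7.81% an AP-1 site, 13.6% TATAAA and 35.7% a GC box, and neither window held an AP-1 site. These are letters in a window and were not measured here as bound sites.

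The kept cells numbered 25204, between 1983 and 4293 per organoid library and 1132 and 1933 for normal and DSS colon. Organoid libraries held 89124015 to 170019527 UMIs in kept cells, and the colonic libraries 19906845 and 32397122. Levels are given as CPM, UMIs scaled to a sum of 1e+06 in the same cells, and since each UMI is a molecule counted at its 3′ end they are not divided by transcript length. Summed levels of the 4 homeostatic stem cell markers Lgr5, Ascl2, Olfm4 and Cd44 within SC were 3157 to 4560 CPM in ENR-, 1958 to 2664 CPM in -VE- and 268 to 923 CPM in Hyper-organoids, with all 4 detected. Within TA the same sum was 1784 to 2659, 1585 to 2293 and 283 to 952 CPM. The study also found the stem and transit amplifying cells of Hyper- and ENR-organoids in separate clusters. Marker sums of the secretory classes moved as well, the 4 goblet markers within GC from 23050 to 31450 CPM in ENR- to 15996 to 20225 CPM in -VE- and 9658 to 19367 CPM in Hyper-organoids. The 4 enteroendocrine markers within EE went from 24189 to 38042 CPM in ENR- to 17613 to 22284 CPM in -VE- and 7665 to 21723 CPM in Hyper-organoids. The 4 Paneth cell markers in EE went from 335 to 627 CPM in ENR- to 2988 to 4228 CPM in -VE- and 841 to 5111 CPM in Hyper-organoids. A class therefore did not have the same marker levels in each medium, and the sums do not show which marker moved. Whether its cells or only their expression differed was not tested, nor was the part of this in the values below. Of 25124 barcode sequences, 79 occurred in more than 1 library. Fewer cells expressing a gene and less RNA per cell cannot be told apart in sums, and shares of cells are therefore given as well.

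Summed over all kept cells of a library, Clu, Anxa1 and Ly6a were near the limit of detection in ENR-organoids, Basp1 was so in ENR- and -VE-organoids, and Cxadr was abundant in all 3 groups. Values in each list run from replicate 1 to replicate 3 (1 to 2 for -VE), which names libraries and is no order. Clu stood at 1.76, 0.407 and 0.281 CPM in ENR-, 7.73 and 4.69 CPM in -VE- and 6.38, 58.1 and 56.5 CPM in Hyper-organoids. Ly6a stood at 0.607, 0.610 and 0.606 CPM in ENR-, 5.82 and 10.5 CPM in -VE- and 9.68, 28.6 and 96.2 CPM in Hyper-organoids. For both genes Hyper replicate 1 lay at the level of the -VE libraries, not with the other Hyper libraries. Anxa1 separated the 3 groups without overlap, at 0.319, 0.0976 and 0.191 CPM, 2.01 and 3.56 CPM, and 8.79, 15.1 and 24.8 CPM. Basp1 was at 0.0206 to 0.140 CPM in all 5 ENR- and -VE libraries, which gave 22 and 24 UMIs per group, and at 6.21, 5.82 and 5.14 CPM in Hyper-organoids. Cxadr stood at 54.3, 54.0 and 49.9 CPM, 44.9 and 45.6 CPM, and 64.1, 65.3 and 61 CPM.

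**Figure D1:**
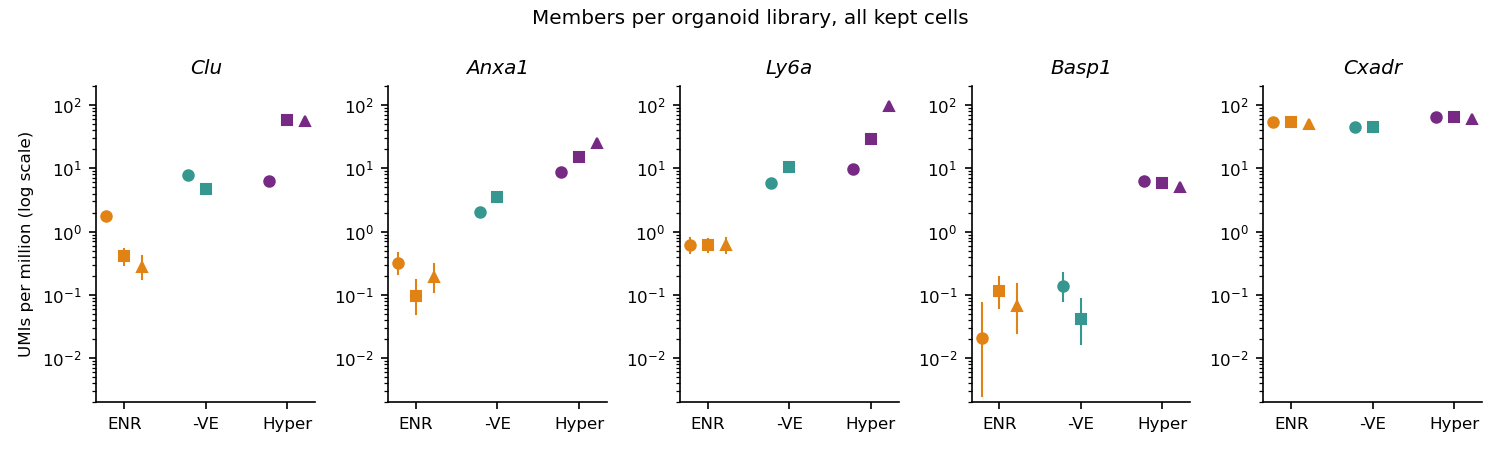
Level of each gene over all kept cells of each organoid library, in CPM (log axis), with exact Poisson 95% intervals; orange is ENR-, teal -VE- and purple Hyper-organoids, and circles, squares and triangles are replicates 1, 2 and 3. Basp1 is high only in the 3 Hyper libraries (5.14 to 6.21 CPM), Clu and Ly6a of Hyper replicate 1 lie among the -VE values, and Cxadr spans 44.9 to 65.3 CPM.

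The edgeR quasi-likelihood test on library sums called genes that differed by at least 2-fold with an adjusted p (Benjamini-Hochberg) under 0.05. Between Hyper- and ENR-organoids it called 4 of the 5 genes, all higher in Hyper-organoids (Clu, Anxa1, Ly6a and Basp1), where 18.2% of 16037 tested genes were called higher. All 5 genes had every Hyper library above every ENR library, as did 40.0% of the tested genes. Against -VE-organoids 3 of 5 were called higher (Anxa1, Ly6a and Basp1; 16.1% of all genes), and 3 of 5 had every Hyper library above every -VE library (Anxa1, Basp1 and Cxadr; 43.8% of all genes). Between -VE- and ENR-organoids 2 of 5 were called higher (Anxa1 and Ly6a; 1.35% of all genes), and 3 of 5 had every -VE library above every ENR library (Clu, Anxa1 and Ly6a; 21.4% of all genes), while Cxadr had both -VE libraries below all ENR libraries. The Clu difference against -VE-organoids was 2.57 on the log2 scale with an adjusted p of 0.0537, and without Hyper replicate 1 it was 3.08 with an adjusted p of 0.00336. Leaving out ENR replicate 1 also brought that call (2.57, adjusted p = 0.0484). Between -VE- and ENR-organoids the Clu difference was 2.96 with an adjusted p of 0.110, and 0.0177 without Hyper replicate 1. The Ly6a call against ENR-organoids held without any 1 library, and the calls that involve -VE-organoids did not. Its difference against -VE-organoids was 2.32 (adjusted p = 0.0479), and leaving out any of the 8 libraries except Hyper replicate 1 ended the call, with 1.09 and an adjusted p of 0.103 without Hyper replicate 3. Blocking on the culture series left 2 of 5 called against -VE-organoids (16.3% of all genes), with Ly6a at 1.19 (adjusted p = 0.0730). Its difference between -VE- and ENR-organoids was 3.76 (adjusted p = 0.0433), and leaving out any 1 of 6 libraries (all but Hyper replicates 1 and 3) gave adjusted p-values of 0.0546 to 0.217, with differences of 3.26 to 4.11 over all 8 omissions. For Anxa1 the -VE call ended without -VE replicate 2, at 3.35 and an adjusted p of 0.0671.

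Mean shares of cells kept the group order of the sums. After thinning each cell to 10000 UMIs, which left out 1028 organoid cells, Clu was found in 0.454% ± 0.308 (SD, n = 3) of ENR-, 2.72% ± 0.525 (n = 2) of -VE- and 12.2% ± 7.28 (n = 3) of Hyper-organoid cells. The corresponding shares were 0.0916%, 1.69% and 11% for Anxa1, 0.552%, 3.29% and 11% for Ly6a, and 0.0151%, 0.0777% and 4.21% for Basp1. The Hyper shares spread by 4.78 for Anxa1, 8.88 for Ly6a and 1.37 for Basp1 (SD in percentage points, n = 3), and without Hyper replicate 3 that of Ly6a was 6.05%. In Hyper replicate 1 the Clu share was 4.15%, above the 2.35% and 3.09% of -VE replicates 1 and 2, whereas its Clu sum lay between theirs. Cxadr was found in 39.9%, 35.7% and 45.2% of the cells. Unthinned shares were higher, at 26.0% for Clu, 31.2% for Anxa1, 20.0% for Ly6a and 11.6% for Basp1 in Hyper-organoids. None of the 15 comparisons of shares passed an exact two-sided permutation test. The smallest p that 3 libraries against 3 or 2 can give is 0.1 (0.136 after Benjamini-Hochberg adjustment over the 15), which 11 of them reached.

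Clu rose in Hyper-organoids against ENR-organoids in all 4 classes with enough cells for a fit, stem, transit amplifying, goblet and enteroendocrine cells. Whether the differences themselves differed between classes was not tested. Within SC (6065 cells) it stood at 1.08, 0.892 and 0.393 CPM in ENR-, 2.23 and 3.92 CPM in -VE- and 6.19, 42.9 and 27.4 CPM in Hyper-organoids, with no overlap between the groups. The SC difference was 4.81 on the log2 scale against ENR-organoids (SE 0.83, adjusted p = 0.00119, edgeR) and 2.94 against -VE-organoids (SE 0.69, adjusted p = 0.00737). Within TA (10117 cells) the values were 2.61, 0.411 and 0.271 CPM, 4.25 and 4.16 CPM, and 4.62, 35.6 and 25.6 CPM, so that Hyper replicate 1 lay just above the -VE libraries. In ENR replicate 1, 71 of the 121 Clu UMIs of TA lay in 1 cell. The TA difference was 4.19 against ENR-organoids (adjusted p = 0.00372) and 2.27 against -VE-organoids (adjusted p = 0.0613). Clu of goblet and enteroendocrine cells was below that of SC in all 3 Hyper libraries, whereas that of enteroendocrine cells was above SC in all 5 ENR- and -VE libraries. The latter enteroendocrine values rest on 3 to 8 UMIs each, too few to fix that order. In -VE replicate 2 the levels were nearly equal, at 3.96 CPM in enteroendocrine cells and 3.92 CPM in SC. Goblet cells had 2.46, 5.19 and 17.1 CPM in Hyper-organoids against 0 to 1.14 CPM in ENR-organoids, a difference of 3.85 (adjusted p = 0.0125). In replicate 3, 65 of the 81 Clu UMIs of goblet cells lay in 1 of 131 cells, and the test was not repeated without it. Enteroendocrine cells had 5.27, 20.4 and 26.4 CPM against 2.11 to 3.08 CPM, a difference of 2.83 (adjusted p = 0.0127). Of the 50 UMIs of Hyper replicate 3, 30 lay in 1 of 86 cells, and each ENR value stands for 3 UMIs, in replicate 3 all in 1 cell. The barcodes of the same Hyper libraries that the authors did not keep had 6.94, 21.7 and 25.9 CPM of Clu, near the enteroendocrine and above the goblet cell level in each. They held 4.59 to 8.76 CPM of Anxa1, 5.88 to 22.7 CPM of Ly6a and 0.557 to 1.76 CPM of Basp1, and the part of free RNA in the class levels and shares was not tested. The few enterocytes of Hyper-organoids (7, 58 and 21 cells) had 9.40, 45.1 and 24.6 CPM, in the range of SC, while those of ENR-organoids had 0.438 to 1.98 CPM. The thinned share of cells with a Clu UMI in Hyper replicates 1, 2 and 3 was 4.83%, 20.3% and 14.3% in SC and 1.30%, 4.19% and 4.03% in goblet cells of the same libraries.

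Anxa1 rose in Hyper-organoids in stem, transit amplifying and goblet cells, and enteroendocrine cells almost lacked it. Within SC it stood at 0.465, 0.0811 and 0 CPM in ENR-, 0.484 and 2.00 CPM in -VE- and 9.10, 12.6 and 21 CPM in Hyper-organoids. Every Hyper library lay far above the rest, and the ENR libraries together gave 7 Anxa1 UMIs. The SC difference was 5.95 against ENR-organoids (SE 0.76, adjusted p = 0.000215) and 3.38 against -VE-organoids (SE 0.56, adjusted p = 0.00126). Transit amplifying cells were alike, at 0.0714 to 0.517 CPM, 1.38 and 2.38 CPM, and 8.37, 13.8 and 19.3 CPM, with differences of 5.37 (adjusted p = 6.84e-05) and 2.75 (adjusted p = 0.00224). In goblet cells no Anxa1 UMI was found in any ENR library, and Hyper-organoids had 2.62, 5.97 and 15.2 CPM, the last with 39 of its 72 UMIs in 1 cell. The pooled goblet cell level was at least 29.4-fold higher than a floor of 3 UMIs over the ENR group, and the difference against -VE-organoids (0.588 and 1.92 CPM) was 2.44 (adjusted p = 0.0413). Enteroendocrine cells held 13 Anxa1 UMIs in all 3 Hyper libraries (1.88, 2.32 and 1.59 CPM), and the gene was not tested there. Their thinned share with Anxa1 was 1.10%, 0% (0 of 100 cells, which allows up to 3.62%) and 1.28% in Hyper replicates 1, 2 and 3, against 8.06%, 8.21% and 17.9% in SC.

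Ly6a had a different distribution, because enteroendocrine cells held it in every medium. Its enteroendocrine level was 14, 40.8 and 17.5 CPM in ENR-, 20.5 and 35.7 CPM in -VE- and 14.7, 93.7 and 106 CPM in Hyper-organoids. In 8 of 8 libraries this was above the SC level of the same library, though by little in Hyper replicate 1, and the groups overlapped. The enteroendocrine difference between Hyper- and ENR-organoids was 1.57 (SE 0.60, adjusted p = 0.108), and with the culture series as a block 1.43 (adjusted p = 0.0248, called). Within SC the gene was nearly absent from ENR-organoids (0, 0.162 and 1.18 CPM), low in -VE-organoids (1.55 and 3.84 CPM) and at 13.4, 22.6 and 76.9 CPM in Hyper-organoids. These SC groups did not overlap, with differences of 6.68 against ENR- (SE 1.12, adjusted p = 0.00104) and 3.68 against -VE-organoids (SE 0.80, adjusted p = 0.00515). Transit amplifying cells had 0.196 to 0.452 CPM, 4.09 and 7.07 CPM, and 3.75, 20.3 and 60.4 CPM. Hyper replicate 1 thus lay below both -VE libraries, and only the difference against ENR-organoids was called (6.28, adjusted p = 0.00151; 2.21 with adjusted p = 0.0749 against -VE-organoids). In goblet cells Ly6a was at 5.69, 0.784 and 0.874 CPM in ENR-, 8.08 and 14.7 CPM in -VE- and 4.59, 4.56 and 52.2 CPM in Hyper-organoids, so that the groups overlapped. Single cells held 17 of the 20 UMIs of ENR replicate 1, 16 of the 28 of Hyper replicate 1 and 99 of the 247 of Hyper replicate 3. That goblet cell difference was 3.02 (adjusted p = 0.0558), and 2.62 with the culture series as a block (adjusted p = 0.0268, called).

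Basp1 was detected in the epithelium of Hyper-organoids and scarcely in the other media, and among the 4 fitted classes enteroendocrine cells had the highest level. Within enteroendocrine cells it stood at 72.3, 46.8 and 79.3 CPM in Hyper-organoids, 0.585 and 1.49 CPM in -VE-organoids and 0 in all 3 ENR libraries. The pooled Hyper level was at least 81.1-fold higher than a floor of 3 UMIs over the ENR group, and the difference against -VE-organoids was 5.84 (SE 0.47, adjusted p = 0.000235), in a class whose endocrine marker sum was lower in Hyper- than in ENR-organoids. Goblet cells had 10.5, 6.44 and 7.18 CPM in Hyper-organoids (18 of the 34 UMIs of replicate 3 in 1 cell), against 1 UMI in all -VE libraries and 0 in ENR libraries, a pooled level at least 32.5-fold above the ENR floor. Stem cells had 4.34, 2.89 and 2.12 CPM and transit amplifying cells 4.92, 4.87 and 3.06 CPM, against 1 to 2 UMIs over each whole group of ENR or -VE libraries. Pooled, the SC ratio was 106 against ENR-organoids (counting interval 18.8 to 4179) and the TA ratio 304 (84.0 to 2517). Thinned shares of enteroendocrine cells with Basp1 were 41.8%, 26.0% and 32.1% in Hyper replicates 1, 2 and 3, and those of SC 3.94%, 2.26% and 1.65%. Enteroendocrine cells held 22.3%, 12.2% and 32.3% of the Basp1 UMIs of these libraries, 443 in all, and transit amplifying cells 907. No Basp1 UMI was found in any enterocyte, enterocyte progenitor or Paneth cell, although Hyper-organoids gave few of these (the 58 enterocytes of replicate 2 allow up to 1.51 CPM). The scarce Basp1 UMIs of ENR-organoids came mostly from the TC class of 17 cells, whose leading genes include Dclk1, Sh2d6 and Ltc4s. It held 14 of 14 Basp1 UMIs in replicate 2 (4 of its 7 cells) and 5 of 6 in replicate 3.

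Cxadr moved little and not in the same direction in each class. In SC it stood at 54.5, 53.9 and 48.3 CPM, 46.1 and 43.8 CPM, and 65.9, 68.2 and 66.0 CPM in ENR-, -VE- and Hyper-organoids, and in TA at 49.5, 49.7 and 44.1 CPM, 42.5 and 42.6 CPM, and 62.8, 62.4 and 55.8 CPM. Hyper libraries were above all others in both classes, by 0.24 in SC (adjusted p = 0.00923) and 0.23 in TA (adjusted p = 0.00847) on the log2 scale against ENR-organoids, under the 2-fold limit. In goblet cells the order was turned, at 83.6, 69.2 and 79.0 CPM in ENR-, 58.3 and 51.5 CPM in -VE- and 62.4, 60.8 and 55.6 CPM in Hyper-organoids. Goblet cells of Hyper-organoids fell by 0.47 against those of ENR-organoids (SE 0.11, adjusted p = 0.00625), and those of -VE-organoids fell by 0.55 (SE 0.12, adjusted p = 0.0407). The Paneth cell markers in goblet cells were at 3386 to 3933 CPM in ENR-, 8828 to 12850 CPM in -VE- and 3518 to 7832 CPM in Hyper-organoids, beside the lower goblet marker sums given above, and their part in the Cxadr difference was not tested. Enteroendocrine cells kept to 49.5 to 59.2 CPM in all 8 libraries, with a difference of 0.09 that did not pass the test. Enterocytes had the highest level in ENR-organoids together with goblet cells, at 78.4 to 82.9 CPM, and 82.3 to 89.4 CPM in Hyper-organoids.

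**Figure D2:**
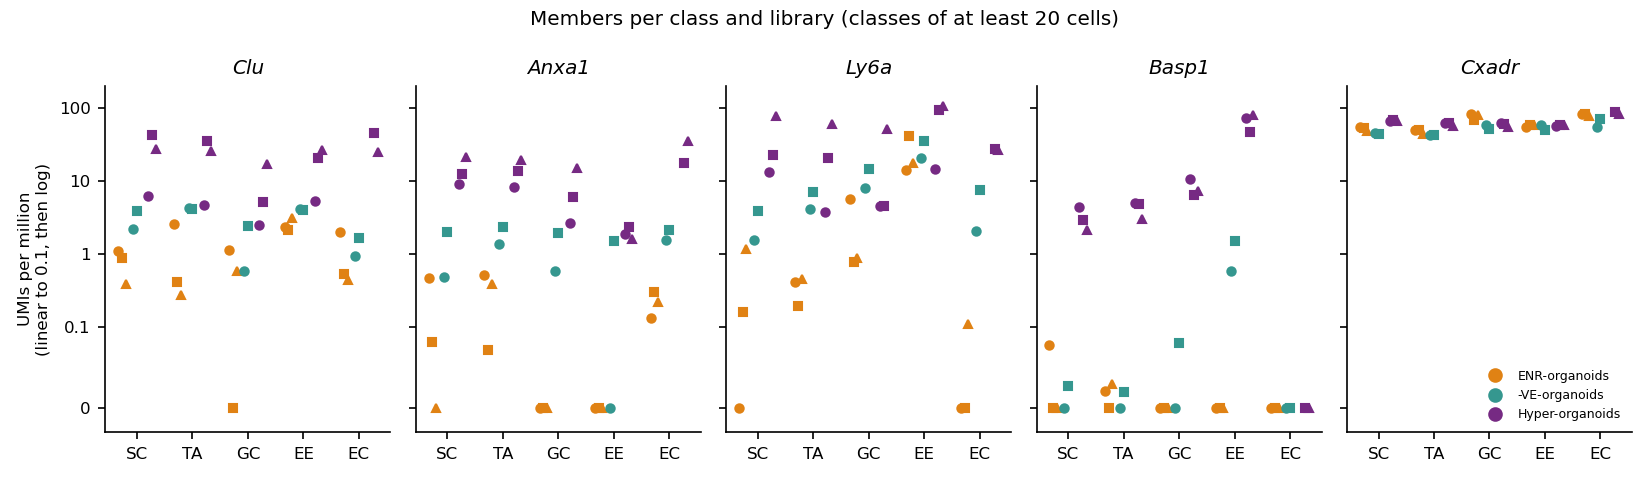
Level of each gene in each organoid library by class (SC, TA, GC, EE and EC with at least 20 cells), in CPM on an axis that is linear to 0.1 and logarithmic above; colours and symbols are as in the plot by library. Clu and Anxa1 of GC lie below those of SC in all 3 Hyper libraries, Ly6a is present in EE of all groups, Basp1 in EE of Hyper-organoids reaches 46.8 to 79.3 CPM, and Cxadr of GC is lower in Hyper- than in ENR-organoids.

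Counted by class, the calls between Hyper- and ENR-organoids were 4 of 5 genes higher in SC (15.2% of all tested genes), 4 of 5 in TA (17.2%), 3 of 5 in GC (10.7%) and 2 of the 4 tested in EE (5.96%). Within the classes Basp1, nearly absent from ENR- and -VE-organoids, passed the filter on low counts only through the Hyper libraries. Against -VE-organoids they were 4 of 5 in SC (14.7%), 2 of 5 in TA (15.5%), 2 of 5 in GC (8.72%) and 1 of 4 in EE (3.52%). Between -VE- and ENR-organoids edgeR called 0 of the genes higher in any of the 4 classes, where it called 0.230% of all genes in SC, 0.694% in TA, 0.529% in GC and 0.118% in EE. At an unadjusted p under 0.05 in either direction the members were 2 in SC, 3 in TA, 2 in GC and 1 in EE. Over all genes these were 2465 of 13920, 2798 of 14553, 2125 of 11714 and 1413 of 11050. DESeq2 called 0, 2, 1 and 0 members higher (0.474%, 1.22%, 0.529% and 0.235% of all genes). Blocking on series, edgeR called 1, 2, 2 and 0 higher (0.445%, 0.845%, 0.717% and 0.127% of all genes), the one in SC being Ly6a (3.81, adjusted p = 0.00286). In SC the -VE values of Clu lay between those of the other groups, and the difference from ENR-organoids was 1.87 with an adjusted p of 0.382. For Anxa1 and Ly6a in SC it was 2.57 (adjusted p = 0.229) and 3.0 (adjusted p = 0.361).

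A small number of cells held much of the Clu, Anxa1 and Ly6a. The RSC class had 70 cells, 8 and 17 in -VE- and 5, 14 and 26 in Hyper-organoids, and 0 in ENR-organoids. Since it comes from clustering these same cells and was named by these 3 genes, the levels of all 5 genes in it are a description without a test. RSC cells were 0.178% to 1.31% of the cells of these 5 libraries and held 20.2% to 59.4% of the Clu UMIs, 6.73% to 46.1% of the Anxa1 UMIs and 23.3% to 38.2% of the Ly6a UMIs. Clu in RSC was at 1709 and 266 CPM in -VE- and at 671, 4594 and 1856 CPM in Hyper-organoids. Anxa1 varied less, from 307 to 472 CPM, and Ly6a ran from 827 to 1789 CPM. The cells of highest Clu in Hyper replicates 2 and 3 held 1230 UMIs each under different barcodes. All 3 genes were found together in 5 of 8 and 12 of 17 RSC cells of -VE- and in 4 of 5, 14 of 14 and 25 of 26 of Hyper-organoids.

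Basp1 and Cxadr also had UMIs in the class. Basp1 was found in 2, 0, 0, 6 and 6 of the RSC cells of -VE replicates 1 and 2 and Hyper replicates 1, 2 and 3, and in -VE replicate 1 those 2 cells held 13 of the library's 17 Basp1 UMIs. The Basp1 level of RSC was 39.7 and 0 CPM in -VE- and 0, 232 and 43.7 CPM in Hyper-organoids, and RSC held 18.6% and 14.2% of the Basp1 UMIs of Hyper replicates 2 and 3. Cxadr in RSC was at 122 and 219 CPM in -VE- and 172, 165 and 96.7 CPM in Hyper-organoids, above the level of the whole library in each of the 5. The class had no Ptprc UMI (Ptprc marks leukocytes), and an Epcam UMI in every cell. Lgr5 was found in 4 of 8, 6 of 17, 5 of 5, 11 of 14 and 20 of 26 cells. Of the other stem cell markers, Olfm4 was found in 7, 14, 4, 1 and 2 of the same cells, and Ascl2 in 2, 1, 3, 4 and 8. Without RSC cells, Clu remained at 3.14 and 3.74 CPM in -VE- and 5.10, 36.8 and 25.8 CPM in Hyper-organoids, Anxa1 at 1.09, 2.17, 8.22, 12.9 and 19.5 CPM, and Ly6a at 3.61, 7.04, 7.44, 21.7 and 67.4 CPM. Most of the Clu and Ly6a of the Hyper libraries therefore lay outside the class, except for Clu in replicate 3.

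**Figure D3:**
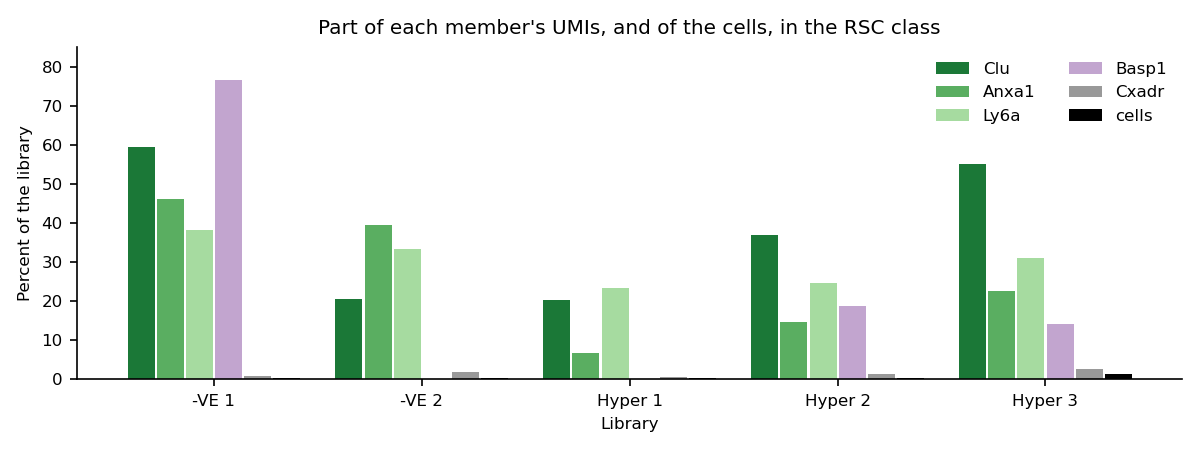
Percent of each gene's UMIs, and of cells, that lie in the RSC class of each -VE- and Hyper-organoid library, as bars from 0. Clu reaches 59.4% and 55.0% in -VE replicate 1 and Hyper replicate 3, Anxa1 is at most 22.6% in Hyper-organoids, Cxadr at most 2.65%, and the cells at most 1.31%.

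It took fewer cells to hold 50% of the UMIs of Clu or Ly6a than of Anxa1 or Cxadr in each Hyper library, with Basp1 between them except in replicate 3. In Hyper-organoids 50% of the Clu UMIs lay in 45, 40 and 11 cells and of the Ly6a UMIs in 15, 35 and 41 cells, of 2812, 3523 and 1983. For Anxa1 the numbers were 176, 170 and 117 cells, for Basp1 104, 58 and 32, and for Cxadr 662, 824 and 429. Cells with at least 10 Clu UMIs after thinning numbered 1, 19 and 14 in Hyper-organoids, of which RSC held 1, 10 and 12. Cells with that much Ly6a numbered 6, 18 and 47, of which RSC held 3, 8 and 22 and SC 3, 4 and 12.

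Outside RSC, Clu, Anxa1 and Ly6a tended to lie in the same stem cells of Hyper-organoids. Among 1117, 1461 and 849 thinned SC cells of replicates 1, 2 and 3, Clu and Ly6a were found together in 11, 49 and 49 cells, where their separate shares multiplied would give 2.42, 25.6 and 25.9. For Clu and Anxa1 the counts were 10, 42 and 34 cells beside 4.35, 24.4 and 21.7, and for Anxa1 and Ly6a 14, 25 and 54 beside 4.03, 10.3 and 32.6. Clu and Basp1 were together in 1, 15 and 1 cells beside 2.13, 6.71 and 2.00, an excess in replicate 2. The counts of replicates 1 and 3 are too low to tell. Cells of 1 library are not replicates, and these counts carry no test.

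Genes of the same families and partners followed the 5 genes to different degrees. They were compared over all kept cells, whose classes differed in number between media. Enterocyte progenitors, for instance, numbered 486, 635 and 809 in ENR- and 3, 3 and 2 in Hyper-organoids. Ly6c1, Anxa3, Ly6d and Msln were among the 10 leading genes of RSC, a class with 0 cells in ENR-organoids. The part of either in the differences was not tested. Of 10 tested relatives of the Ly6 family, 8 were higher (18.2% of all tested genes were called higher) and 1 lower in Hyper- than in ENR-organoids, with a median difference of 2.64 beside -0.01 over all genes. Ly6c1, a close relative of Ly6a, rose from 0.0309, 0.0407 and 0.0112 CPM to 1.30, 2.87 and 8.15 CPM (6.98 on the log2 scale, adjusted p = 0.000526), with 0.189 and 0.676 CPM in -VE-organoids. Ly6e, a broadly expressed member, rose by 1.43 to 197, 225 and 268 CPM, and was called also in -VE-organoids (144 and 195 CPM, 1.12, adjusted p = 0.0294). Lypd3 rose by 3.85, Plaur (the urokinase receptor) by 1.07 and Cd59a (a complement inhibitor) by 1.25. Ly6d, Ly6g and Ly6h were called as well from levels of 0 to 0.0112 CPM in ENR-organoids. With Ly6c1, they passed the filter on low counts only through Hyper- or -VE libraries. Ly6c2, Ly6i and Ly6k, scarce in every group, were not tested, so the count and the median lean upward. The filter was the same for the 18.2% of all genes. Anxa8, Jam2, Gap43 and Lrp2 below, among others, entered in the same way. Lypd8, an antibacterial protein of the gut lining, fell by 1.29, from 612, 687 and 673 CPM to 231, 320 and 331 CPM.

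Of 10 annexins tested, 4 were higher (18.2% of all genes) and 0 lower between Hyper- and ENR-organoids, with a median of 0.25. Anxa5, a binder of phosphatidylserine, stood at 6.71, 4.91 and 6.10 CPM in ENR-, 13.9 and 23.5 CPM in -VE- and 50.4, 59.6 and 67.5 CPM in Hyper-organoids, and was called in all 3 contrasts (3.2, 1.53 and 1.67 for Hyper against ENR, Hyper against -VE and -VE against ENR). Anxa3 was called against ENR-organoids in both Hyper- (2.59) and -VE-organoids (1.92), and Anxa6 in Hyper-organoids against both others (3.49 and 3.0). Anxa8 was called at 0.00722, 0.176 and 0.354 CPM in Hyper-organoids against 0 to 0.0103 CPM in ENR-organoids. Among 9 junctional proteins related to Cxadr, 4 were higher against ENR-organoids, beside the same 18.2% (Esam 1.45, Vsig1 3.76, Igsf11 1.31 and Jam2 3.28), and the median was 0.93. Of the relatives of Basp1, Marcksl1 rose by 1.29 and Gap43 was called at 0.0939, 0.190 and 0.0665 CPM against 0 to 0.0163 CPM, while Marcks fell by 0.41, under the 2-fold limit.

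Of the receptors and partners, 1 of 10 tested was higher against ENR-organoids (18.2% of all genes), and the median was 0.06. The call was Lrp2 (megalin, a receptor of clusterin), at 0.188, 0.422 and 0.111 CPM. Vldlr was called between -VE- and ENR-organoids (23.2 and 18.0 against 8.31 to 10.5 CPM). The formyl peptide receptor Fpr1 was at 0 in all 8 libraries, and Fpr2 did not exceed 0.0361 CPM. Of 18 tested genes of fetal-like and injured epithelium, 7 were higher (18.2% of all genes) and 0 lower against ENR-organoids, with a median of 1.35. Gja1 (connexin 43) rose most of these, from 0.0163 to 0.0561 CPM to 15, 24.5 and 23.9 CPM (8.92), and was at 0.115 and 0.0823 CPM in -VE-organoids. Cldn4 rose by 2.63, Ccn2 by 2.37, Il33 by 3.93, Spp1 by 5.38, Msln by 5.35 and Il1rn by 2.29. Against -VE-organoids the numbers called higher were 4 of 10 Ly6 relatives, 2 of 10 annexins, 1 of 9 junctional proteins, 1 of 3 relatives of Basp1, 1 of 10 partners and 5 of 18 fetal-like genes, Emp1 (1.00) among the last, beside 16.1% of all genes. Between -VE- and ENR-organoids they were 1, 2, 1, 0, 1 and 1 of the same numbers, the last being Msln (4.73, adjusted p = 0.0497), beside 1.35% of all genes.

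Likeness of pattern was measured as Pearson's r of log2 CPM over 48 class-by-library sums of organoids, which share libraries and are no independent points. Only sums of at least 30 cells were used. RSC, with at most 26 cells in a library, was therefore left out, and r does not cover the class in which Clu, Anxa1 and Ly6a were highest. Clu was most like Tdrp (0.83), 3632451O06Rik (0.81) and Arhgap44 (0.81), and Anxa1 most like Cyp1a1 (0.91), Stk26 (0.85) and Pdgfc (0.85). Ly6a was most like Flywch2 (0.90), Slc38a1 (0.90) and Ildr1 (0.87), Basp1 most like Rimklb (0.96), Gpr12 (0.96) and Slc12a4 (0.96), and Cxadr most like Apol7a (0.84), Iqgap2 (0.80) and Pepd (0.80). None of the 5 genes was among the 3 nearest of another. Between the members r was 0.78 for Clu and Ly6a, 0.74 for Clu and Anxa1, 0.60 for Anxa1 and Ly6a, 0.61 to 0.64 for Basp1 with these 3, and 0.18 to 0.32 for Cxadr with the others.

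The colonic crypts were summed in the same way. There is 1 library per group, so no test was made, and intervals cover counting error only. Over all kept cells Clu stood at 7.48 CPM in normal and 54.5 CPM in DSS colon, a ratio of 7.29 (95% interval 6.16 to 8.67), and Basp1 at 2.11 and 8.86 CPM, a ratio of 4.20 (3.03 to 5.95). Anxa1 stood at 236 and 282 CPM (1.19) and Cxadr at 108 and 103 CPM (0.953). Ly6a went the other way, from 1170 to 580 CPM, a ratio of 0.495 (0.486 to 0.505). Of 12440 genes with at least 1 CPM in either library, 3.55% were at least 2-fold higher in DSS, as were 2 of the 5 genes, and 1.53% at least 2-fold lower, as was 1 of the 5. Without the cells holding a Ptprc UMI, 1564 of 1933 DSS and 932 of 1132 normal cells were left, and the Basp1 ratio was 2.79 (1.73 to 4.72) in place of 4.20. Both libraries held far more Anxa1 and Ly6a than any organoid library.

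DSS colon held its Clu in a few clusters of the annotation, which are given here by number and leading genes. Cluster 9 (Ido1, Prss22, Clu and Ubd), with 108 DSS and 2 normal cells, stood at 409 CPM and held 59.2% of the library's Clu UMIs. A Clu UMI was found in 42.6% of its DSS cells, the highest with 423, and Clu was itself among the genes that define the cluster. Clusters 10 (Ccl20) and 7 (Atp12a, Tgm3), also nearly all from DSS, had 53.3 and 44.0 CPM. Cluster 20 (30 DSS cells) had 115 CPM, from 32 UMIs in 4 cells. Cluster 18 (Dcn, Col3a1, Sparc), in which 63.6% of the cells also held a Ptprc UMI, had 470 CPM, with 67 of its 81 UMIs in 1 of 33 cells. In normal colon the 11 cells of cluster 18 had 858 CPM and held 30.9% of the library's Clu UMIs, all in 2 cells. Cluster 2, annotated as stem (Cdk6, Ascl2), had 33.0 CPM in DSS and 8.54 CPM in normal colon. In clusters 15, 21 and 22 of DSS, led by neutrophil and macrophage genes, no Clu UMI was found, which allows up to 15, 19.7 and 63.6 CPM. In each colonic library 7 cells held 50% of the Clu UMIs.

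Ly6a of the normal colon lay in clusters that DSS colon lacked. Cluster 3 (Isg15, Phf11b, Ifi44; 274 normal and 1 DSS cells) stood at 2765 CPM and held 71.6% of the library's Ly6a UMIs, and cluster 12 (93 normal and 1 DSS cells) at 2416 CPM. Both have interferon-induced genes among their leading genes. In DSS colon the highest were cluster 9 at 2379 CPM, cluster 20 (Zg16, Spink1, Tff3) at 2042 CPM and cluster 7 at 1811 CPM. Clusters 3, 12 and 14, chosen after their values were seen, were 39.2% of the normal cells and held 84.7% of its Ly6a and 74.8% of its Anxa1 UMIs. Without them normal colon had 311 CPM of Ly6a and 103 CPM of Anxa1. Clusters 7, 9, 10 and 20, chosen likewise, were 19.7% of the DSS cells and held 74.6% of its Clu, 66.9% of its Ly6a and 40.8% of its Anxa1 UMIs, and without them DSS colon had 18.2 CPM of Clu, 252 CPM of Ly6a and 219 CPM of Anxa1. A cluster that is mostly of 1 library may be that library and no cell type.

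Among colonic clusters of at least 20 cells, 2 kinds had the highest Anxa1 levels. The highest levels were in the DSS clusters 22 (Camp, Ngp, Ltf; 3827 CPM in 21 cells) and 15 (Retnlg, S100a9, S100a8; 2113 CPM in 66 cells), whose leading genes are those of neutrophils. They held 8.15% of the DSS library's Anxa1 UMIs. Epithelial clusters followed, with 643 CPM in cluster 9, 427 CPM in cluster 10, 387 CPM in cluster 20 and 372 CPM in cluster 7 of DSS, and 477 and 446 CPM in clusters 12 and 3 of normal colon. Cluster 18, led by stromal genes, had 284 CPM in DSS. Its 11 normal cells had 1007 CPM, from 54 UMIs, 32 of them in 1 cell. Cluster 0 (Cd7, Xcl1, Ctsw), rich in lymphocyte genes, had 15.2 and 12.5 CPM. A UMI was found in 6.29% of cluster 0's DSS cells (median 3924 UMIs) and in 80.3% of cluster 15's (median 3291 UMIs).

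In DSS colon the highest Basp1 levels among clusters of at least 20 cells were in clusters led by leukocyte genes. It stood at 363 CPM in cluster 21 (C1qb, Apoe, C1qa; 65.0% of 20 cells), 255 CPM in cluster 15 and 93.2 CPM in cluster 8 (Igha, Cd79a). The smaller cluster 23 (Mcpt1, Mcpt2) had 184 CPM, from 6 UMIs in 7 DSS cells. Clusters 21 and 15 held 68 and 63 of the 287 Basp1 UMIs of DSS colon. Cluster 18, whose leading genes are stromal but in which 63.6% of the cells held a Ptprc UMI, had 87.0 CPM in DSS, from 15 UMIs, and 317 CPM in the 11 cells of normal colon, where it held 17 of the library's 42 Basp1 UMIs. Cluster 16 (Chgb, Chga, genes of enteroendocrine granules) had 35.1 CPM in DSS, from 10 UMIs, and 12.9 CPM in normal colon. Cluster 9 had 8.61 CPM, with 19 of its 22 UMIs in 1 cell, and cluster 13 of DSS 19.1 CPM, with 18 of 25 in 1 cell. In the other epithelial clusters of at least 20 cells the level was 0 to 0.825 CPM, and cluster 24, which shares Sh2d6 and Dclk1 with the organoid class TC, had no Basp1 UMI in its 9 DSS cells, which allows up to 103 CPM. Cxadr was at 64.4 to 154 CPM in most epithelial clusters and 0 to 16.2 CPM in clusters 0, 8, 11, 15 and 21, while cluster 22 had 51.7 CPM of it from 3 UMIs beside 17.2 CPM of Basp1 from 1. Over 28 cluster-by-library sums of the colon r between Basp1 and Cxadr was -0.66.

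**Figure D4:**
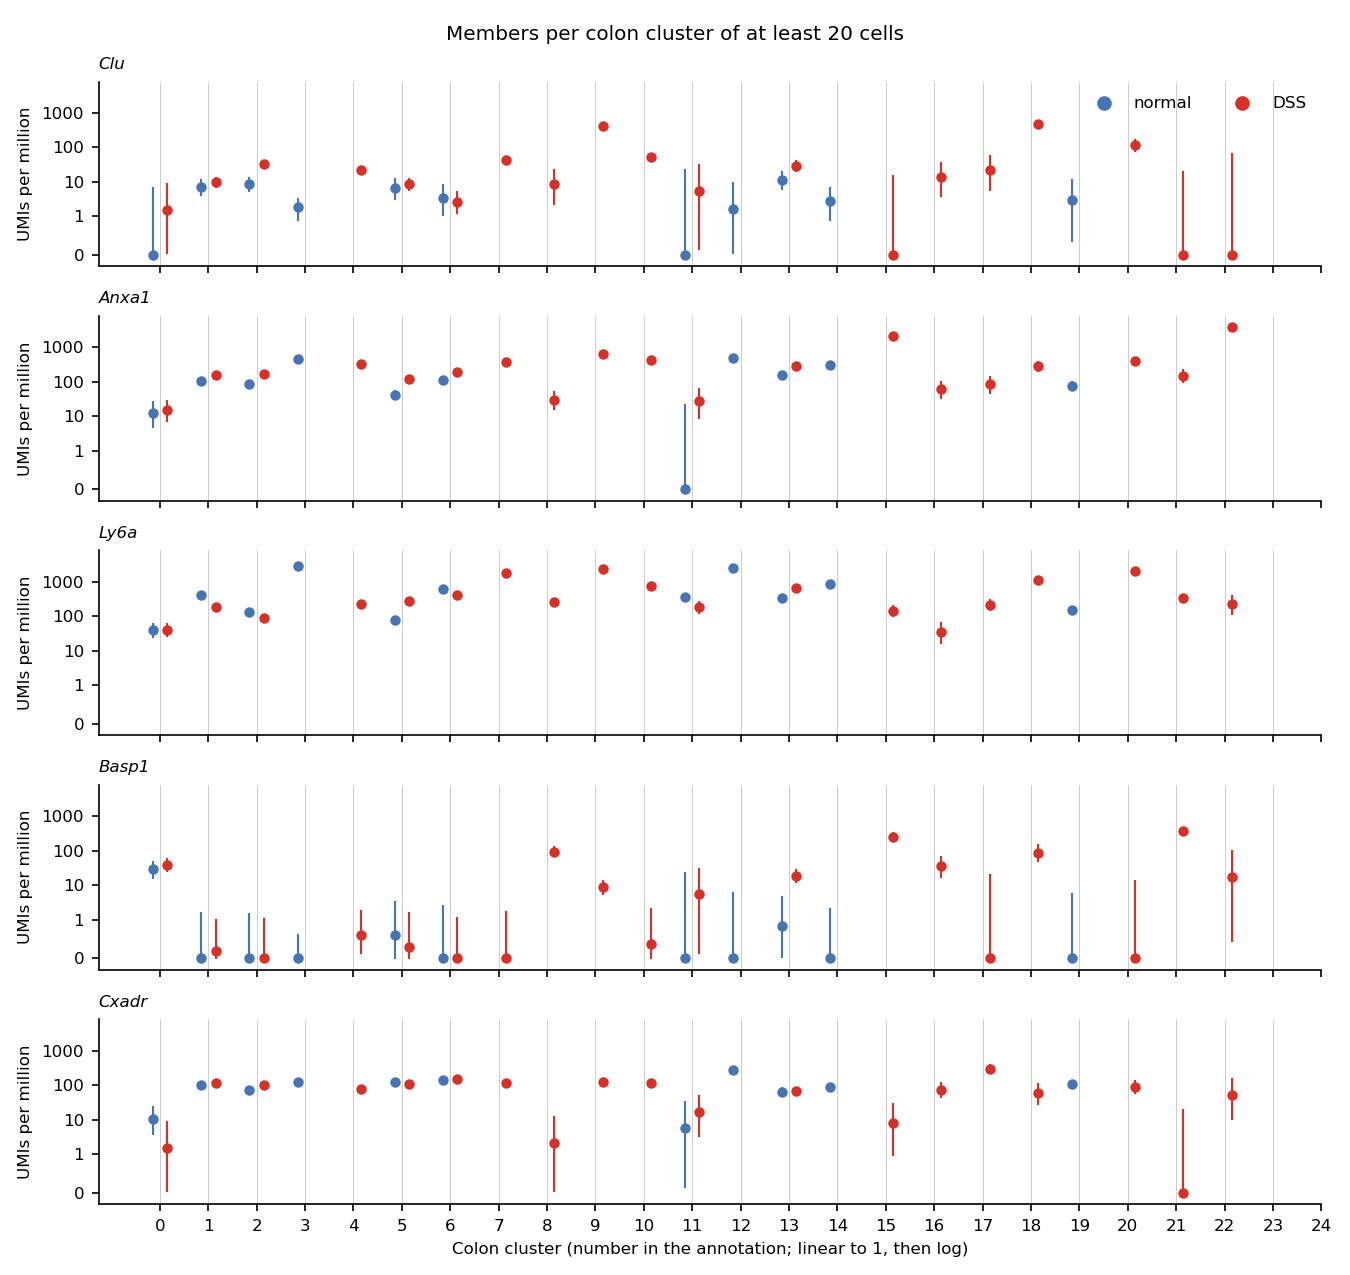
Level of each gene in colonic clusters with at least 20 cells, normal in blue and DSS in red, in CPM on an axis that is linear to 1 and logarithmic above, with exact Poisson 95% intervals. Clu is highest in clusters 18 and 9 of DSS, Anxa1 in 22 and 15, Ly6a in 3 and 12 of normal and 9 of DSS, and Basp1 in 21 and 15, where Cxadr is at 0 and 8.11 CPM.

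The clusters with at least 30 cells in both libraries were 0, 1, 2, 5, 6, 11 and 13, 7 in all, and within them the direction depended on gene and cluster. Anxa1 was higher in DSS in all 5 epithelial ones, by 1.52 (1.32 to 1.75) in cluster 1 (Ces1g, Ugt2b5), 1.91 (1.62 to 2.25) in the stem cluster 2, 2.83 (2.20 to 3.68) in cluster 5 (Spink4, Spdef), 1.77 (1.49 to 2.12) in cluster 6 (Slc51a, Mal) and 1.78 (1.49 to 2.13) in cluster 13 (Pclaf, Birc5, Ccna2). Ly6a was lower in DSS in clusters 1 (ratio 0.453), 2 (0.666), 6 (0.641) and 11 (Gzma, Gzmb; 0.525, 0.334 to 0.814), and higher in clusters 5 (3.49, 2.91 to 4.21) and 13 (1.89, 1.68 to 2.13). In cluster 0 the Ly6a ratio was 1.04 (0.573 to 1.92). The fall of Ly6a over the library was thus not shared by the cluster led by goblet genes and the cluster led by cell cycle genes, and was not seen in cluster 0. Clu was higher in the stem cluster 2 (3.86, 2.41 to 6.48) and in cluster 13 (2.44, 1.29 to 4.89), and the intervals of clusters 1, 5 and 6 spanned 1. In DSS, 1 cell held 38 of the 113 Clu UMIs of cluster 2, and 1 cell 12 of the 37 of cluster 13. Cells with a Clu UMI were 20.2% in DSS and 14.7% in normal colon in cluster 2, and 14.8% and 16.7% in cluster 13. Cxadr had an interval off 1 in cluster 2 alone (1.40, 1.16 to 1.70). Basp1 had 25 against 1 UMIs in cluster 13, most of them in 1 cell. Colonic barcodes that the authors did not keep had 865 CPM of Ly6a in normal and 314 CPM in DSS colon. They had 1.79 and 26.15 CPM of Clu, and 201 and 143.5 CPM of Anxa1. The part of free RNA in the cluster levels and ratios was not tested.

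**Figure D5:**
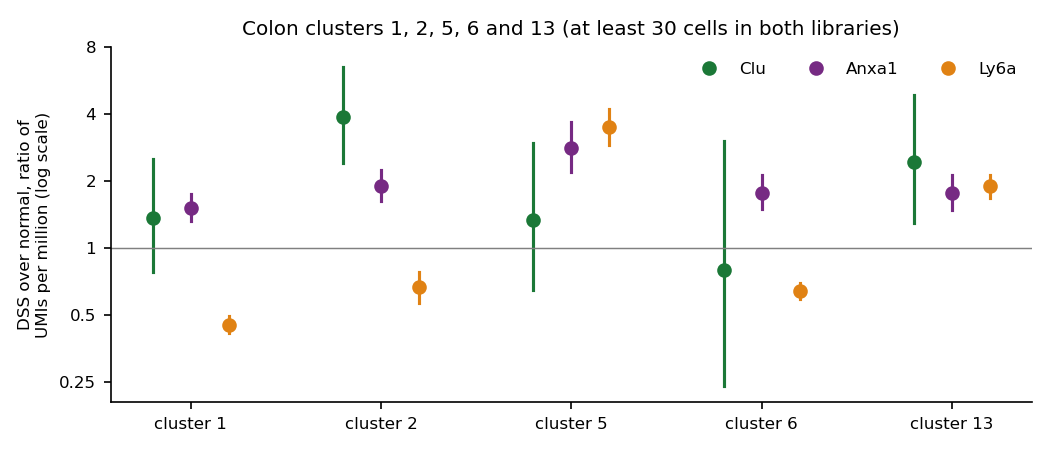
Ratio of CPM in DSS over normal colon for Clu, Anxa1 and Ly6a in colonic clusters 1, 2, 5, 6 and 13, with 95% counting intervals and a line at 1. Anxa1 lies above 1 in all 5 (1.52 to 2.83), Ly6a from 0.453 in cluster 1 to 3.49 in cluster 5, and the Clu interval clear of 1 in clusters 2 and 13. There 1 DSS cell each held 38 of 113 and 12 of 37 Clu UMIs.

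By likeness over the colonic sums, Clu was nearest to Aldh1a3 (0.84), Fbln1 (0.77) and C2 (0.76), Anxa1 to Cebpd (0.88), Skap2 (0.88) and Aldh2 (0.87), and Ly6a to Mboat1 (0.78), Ly6c1 (0.76) and Anxa8 (0.76). Basp1 was nearest to Nrros (0.88), Slc2a6 (0.88) and Rasgrp4 (0.85), and Cxadr to Marveld3 (0.94), Ppfibp2 (0.93) and Trim16 (0.92). These neighbours share none with the organoid lists, and r between Clu and Anxa1 was 0.41 and between Anxa1 and Ly6a 0.52.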

How the data were processed

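Single-cell RNA of 8 organoid and 2 colonic libraries was sequenced on the 10x 3′ v3 platform. The authors deposited UMI counts per gene and cell, not normalized, made with Cell Ranger (3.0.0 in the submitters' processing notes, 3.1.0 in the matrix headers) on mm10, and an annotation of classes and clusters made with Seurat 3.1.4. Of 126020 entries of the 5 genes in the deposited counts, 0 differed from the library matrices. The cells that the authors kept were used, of which 1375 held fewer than the 1500 genes named in the methods. Doublets were not called, and an alternative left out the 5% of cells with the most UMIs per library. Every value column was mapped to its library (0 left unmapped).

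UMIs were summed per library, and per class where each library had at least 20 cells. One fit of the 8 organoid libraries was made in edgeR 4.0.16 (TMM, filterByExpr, quasi-likelihood F test; R 4.3.3), adjusted over all tested genes by Benjamini-Hochberg, and the procedure was tested on simulated data. Levels are plain CPM with exact Poisson 95% intervals, and shares have exact binomial (Clopper-Pearson) ones, which cover counting error only. Colonic log2 ratios use a pseudocount of 1 CPM. DESeq2 1.42.0, other filters, a replicate block, thinned cells and leaving out each library were the alternatives. ENR and Hyper libraries of the same culture series deviated together from their group means (correlations 0.192, 0.170 and 0.436 over 16037 genes). Those of different series ran from -0.292 to 0.129 (ENR replicate 2 with Hyper replicate 1). The series may thus pair them, most clearly in series C, and the main fit and the tests of shares did not use that pairing.

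The 5 genes and all gene lists were chosen with earlier results of these data known. Beside the 5, the text names the 3 genes most like each in organoids and in colon, and the called members of each related list. A gene of those lists is not reported here and was left out of their counts. The clusters' leading genes and the groups of colonic clusters were named after their values were seen.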

Additional observations from a re-analysis of the deposited data

Results flagged for a closer look

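Cxadr moved in opposite directions in different classes of the same organoids. Between Hyper- and ENR-organoids its log2 difference in stem cells exceeded that in goblet cells by 0.725, and in transit amplifying cells that in goblet cells by 0.708. Every Hyper library was above every ENR library in stem and transit amplifying cells and below every ENR library in goblet cells. Given this order, each Hyper library must also exceed each ENR library in either class difference. The order alone therefore fixes the p of the permutation given next, which is no separate test of it. An exact two-sided permutation of the group labels gave p = 0.1 for either difference, the smallest that 3 libraries against 3 can give.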

How the results depend on the processing

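Over all results, leaving out a library left 221 values staying, while 14 lost and 3 gained a call and 10 moved. Staying means on the same side of the threshold or moved little, and for a share difference only that its sign was kept. That of Ly6a for Hyper against -VE counted as staying, at 7.67 percentage points with all libraries and 2.75 without Hyper replicate 3. Under the other alternatives 318 stayed, 6 lost and 15 gained a call and 16 moved. The cause of a change was not tested. No fold change called in the main or the alternative fit turned its sign, nor did any share difference or colonic ratio. A fold change called in neither fit was counted as staying even where its sign turned. With at least 10 CPM in 2 libraries, where fewer genes are tested, the genes called numbered 800 for Hyper against ENR, 528 for Hyper against -VE and 166 for -VE against ENR, and 1 of the 4 of the 5 genes still tested was called for Hyper against -VE. For -VE against ENR, leaving out a library gave 96 to 519 genes called and 0 to 3 of the 5, and 1 was called after thinning and 1 without RSC cells, an alternative chosen after seeing the data.

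Clu in Hyper against -VE was called after thinning (2.33, adjusted p = 0.0458), by DESeq2 (2.58, 0.0450), with no filter (2.58, 0.0337) and without RSC cells (2.58, 0.0411), and ran from 2.21 to 3.08 without single libraries. Clu in -VE against ENR was called in a fit of those 2 groups (2.96, 0.0362) and ran from 2.55 to 4.14. Anxa1 there ran from 3.35 to 4.31. Ly6a in Hyper against -VE lost its call at 10 CPM (2.46, 0.0513), in a fit of 2 groups (2.32, 0.103), with the replicate block (1.19, 0.0730) and without the 5% of cells (2.13, 0.0588), and ran from 1.09 to 2.82. In -VE against ENR it lost it after thinning (2.85, 0.117) and without RSC cells (3.14, 0.0621), and ran from 3.26 to 4.11.

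In the classes, for -VE against ENR, DESeq2 called Anxa1 in GC (4.73) and TA (2.55) and Ly6a in TA (4.00). The replicate block there called Anxa1 in GC (6.81) and TA (2.84) and Ly6a in GC (3.58), SC (3.81) and TA (5.11). For Hyper against ENR, where the series may pair the libraries, the block called Ly6a in EE (1.43) and GC (2.62) and changed no other call. In the colon, the log2 ratio of Clu was 2.07 thinned and 3.13 without the Ptprc-rich clusters (chosen after seeing the data), that of Anxa1 0.18 without Ptprc cells, 0.18 at 1500 genes and 0.20 without those clusters, that of Ly6a -1.27 thinned, that of Basp1 0.96, 1.47 and 1.27 without Ptprc cells, thinned and without those clusters (the last a plain ratio of 6.27, 2.89 to 16.2, since normal colon then had 0.366 CPM), and that of Cxadr -0.17 thinned. Depth limits genes at 0 to 3 UMIs per group, such as Basp1 and Anxa1 in ENR classes.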
